A study of Mus musculus with 12 samples.

Results

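The Serpin family, the superfamily of serine protease inhibitors, was followed in mouse prostate. Its members were taken as all protein-coding genes of the annotation whose symbol begins with Serpin, with no use of their values. There were 61 such genes among the 39179 rows of the table, and all 61 had a row. Of these, 20 were at 4 or more on the log2 scale in 6 or more of the 12 libraries, and the other 41 were not tested.

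The tissue came from mice aged 4 months, of a hybrid strain (129/SvImJ with C57Bl/6J), that had all received paraquat, a herbicide used to induce oxidative stress. There were 6 libraries from mice null (-/-) for the gene under study and 6 from wild-type (+/+) mice, with poly-A RNA sequenced from each. Untreated mice were not analysed here, and genotypes are compared only under paraquat. The labels give neither the dose or route of paraquat nor the prostate lobe, and do not say which libraries came from separate animals.

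A serpin works as a bait: the protease cuts an exposed loop near the end of the protein, the reactive centre loop, and the cut inhibitor swings the protease to its other end and traps it there. Families are named by letter. Clade A holds mostly secreted plasma inhibitors, clade B holds inhibitors that stay inside cells, and clade E holds the inhibitors of plasminogen activators and thrombin at the cell surface and in the matrix. Some members have lost inhibition and act as hormone carriers, chaperones or growth-modulating proteins. In the male tract, serpins meet the proteases that control clotting and liquefaction of semen.

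The libraries of each genotype formed 2 sets of 3 with similar profiles, libraries 1 to 3 and libraries 4 to 6. Every comparison was therefore made with limma in both ways, across all 12 libraries and across the 4 set means, with a Benjamini-Hochberg adjustment over the 16197 genes that passed the same limit of 4. A gene is called where its adjusted p is under 0.05, and "rose" and "fell" are kept for genes called in both fits. Differences are null minus wild type on the log2 scale, and standard errors (SE) are those over the set means. Recovered depth was 14.8 to 21.7 M reads per library. By the same factors a value of 4 would be about 11.5 to 19.2 reads. The factors held only for high values, however, so this is not a read count. P-values over libraries measure only the spread between these libraries, which may be technical. In whole tissue, fewer cells of a type and less RNA per cell cannot be told apart. Genes known from other glands were unevenly represented, and whether these transcripts came from another gland or from prostate cells was not tested. The 6 seminal vesicle genes took 15.5% to 15.7% of null libraries 1 to 3, 0.715% to 0.727% of null libraries 4 to 6 and at most 0.00104% of any wild-type library. Markers of differentiated prostate epithelium (Pbsn, Msmb, Sbp, Tgm4, Krt8 and Krt18) were present in all libraries, at 0.952% to 1.14% of null and 6.78% to 7.95% of wild-type libraries.

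Over the 12 libraries 13 of the 20 tested Serpin genes were called, beside 65.9% of all genes tested. Of these, 9 were higher in the null (34.1% of all genes) and 4 were lower (31.8% of all genes). Over the set means only Serpine2 was called higher and only Serpinb1a lower, which makes 2 of 20 beside 4.09% of all genes, 2.15% higher and 1.93% lower. The libraries of the genotypes did not overlap for 9 Serpin genes (44.2% of all genes), 7 of them higher in the null (21.5%) and 2 lower (22.7%). Both null sets lay on the same side of both wild-type sets for 13 Serpin genes (67.2% of all genes), and 5 had an unadjusted p under 0.05 over the set means (31.1% of all genes). With libraries scaled to equal totals, the 12-library fit called 13 members higher and 2 lower. Of all 16197 genes it then called 8611 higher and 2608 lower, with a median difference of 0.37. The median difference of the 20 was 0.34, with 13 above and 7 below 0, and the median of all genes was 0.05. The share of called members was thus close to that of all genes in the 12-library fit, and rested on 2 genes over the set means.

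**Figure D1:**
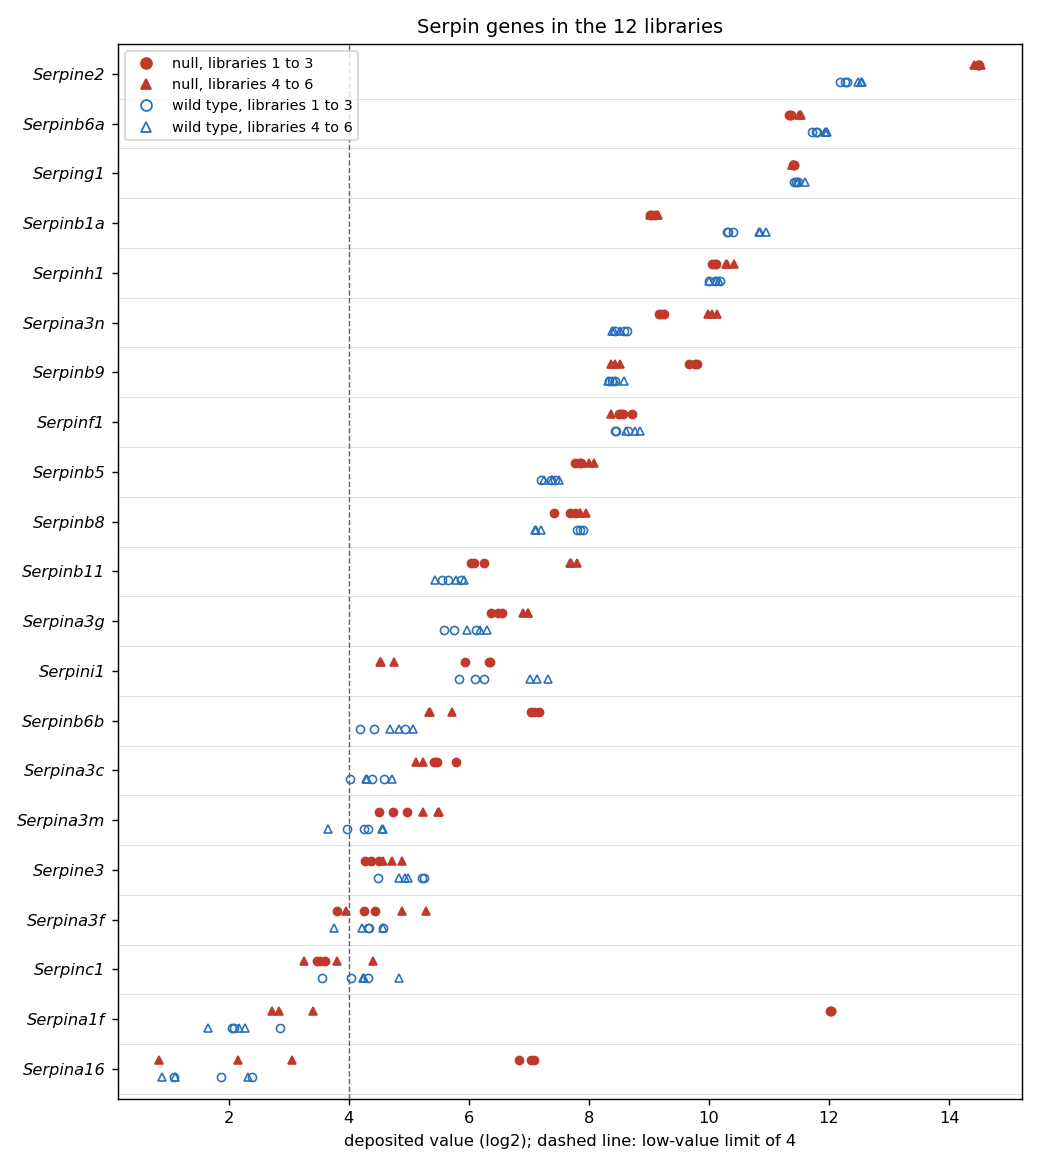
Deposited log2 values of 19 of the 20 tested Serpin genes, Serpina1f and Serpina16 (rows) in 6 null libraries (filled, upper line of each row) and 6 wild-type libraries (open, lower line); circles are libraries 1 to 3 and triangles libraries 4 to 6. Serpine2 lies between 14.42 and 14.54 in the null libraries, above all wild-type libraries, and Serpina1f is near 12.03 in null libraries 1 to 3 alone.

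**Figure D2:**
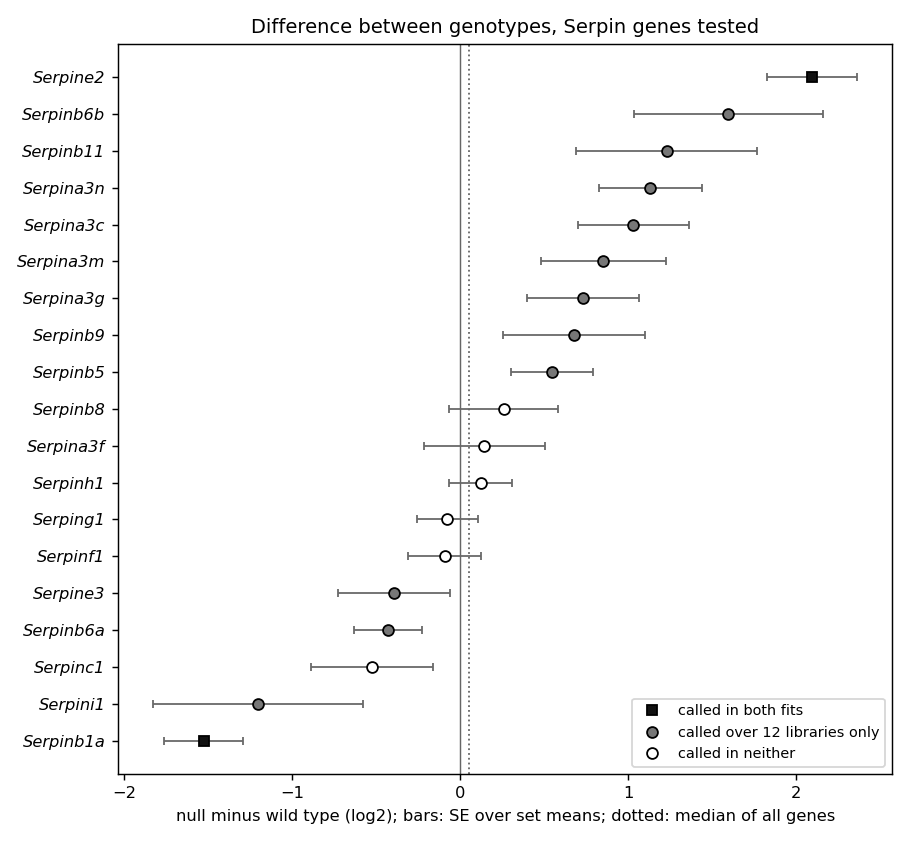
Difference between genotypes (null minus wild type, log2) for 19 of the 20 tested Serpin genes, with bars for the SE over the set means and a dotted line at the median of all genes, 0.05. Black squares are the genes called in both fits, Serpine2 at 2.10 and Serpinb1a at -1.53.

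Serpine2, or protease nexin-1, is a secreted inhibitor of thrombin, urokinase and plasmin that binds to the cell surface, and it is a known product of the mouse seminal vesicle. Its transcript was the most abundant of the family in the null and rose 4.28-fold. Serpine2 (ENSMUSG00000026249, GRCm38 chr1:79794197-79861180, minus strand) had a lowest, median and highest value of 14.42, 14.48 and 14.54 in null libraries, against 12.18, 12.39 and 12.55 in wild-type libraries. Every null library was above every wild-type library, and the null libraries lay within 0.12 of each other. Serpine2 rose by 2.10 (SE 0.27, n = 6 libraries per genotype), with a limma adjusted p of 3.48e-10 (12 libraries) and 0.0169 (set means).

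Serpine2 averaged 14.48 in null libraries 1 to 3 and 14.48 in null libraries 4 to 6, against 12.25 in wild-type libraries 1 to 3 and 12.52 in wild-type libraries 4 to 6. Of the 5 proximal luminal markers Psca, Krt4, Clu, Ly6a and Ppp1r1b, 4 were higher over the set means (2.15% of all genes). Their summed share was 0.439% to 0.506% of null libraries and 0.0269% to 0.0450% of wild-type libraries, and none was at the floor. This sum is weighted toward Clu, at 15.86 to 16.24 in null libraries, where Psca, the next most abundant, reached at most 12.71. The part of these markers, or of the seminal vesicle genes, in the Serpine2 difference was not tested.

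The protease specificity of a serpin is set by the reactive centre loop, which is coded just before a stretch conserved across the family. The coding sequences of this region are shown for the 2 genes called in both fits, with that conserved signature in capitals and the loop in the lower-case bases before it (GRCm38, GENCODE transcripts). The Serpine2 stretch, chr1:79796842-79799507 on the minus strand, crosses an intron, and the Serpinb1a stretch is at chr13:32842872-32842979 on the minus strand. Aligned with each other, they were identical at 52.6% of positions. The signature was found in 51 of the 61 members and in 19 of the 20 tested, with Serpinb11 as the exception.
Serpine2: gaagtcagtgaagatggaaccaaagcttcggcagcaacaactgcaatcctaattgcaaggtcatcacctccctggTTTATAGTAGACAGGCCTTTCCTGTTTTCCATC
Serpinb1a: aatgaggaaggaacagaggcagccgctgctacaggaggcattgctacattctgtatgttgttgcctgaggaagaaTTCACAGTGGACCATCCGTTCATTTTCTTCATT

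Serpine3, a little-studied relative in clade E, was low. It was at 4.56 ± 0.23 in null and 4.95 ± 0.28 in wild-type libraries (SD, n = 6 each), with overlap. Its difference of -0.39 (SE 0.33) passed over the 12 libraries by a small margin (limma adjusted p = 0.0476), but not over the set means (0.435), and it lost the call without any of 9 of the 12 libraries and, at -0.08, with libraries scaled to equal totals. On the opposite strand Ints6 covers 24.8% of the Serpine3 exon bases, and without strand their reads cannot be told apart. Ints6 was at 9.63 ± 0.10 in null and 9.48 ± 0.08 in wild-type libraries.

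Serpinc1 and Serpinf1 were the tested members of clades C and F, and neither was called. Serpinc1, antithrombin, the plasma inhibitor of thrombin and factor Xa, was near the limit of 4. It was at 3.68 ± 0.40 in null and 4.21 ± 0.42 in wild-type libraries (SD, n = 6 each). Its difference of -0.53 (SE 0.36) missed the threshold (limma adjusted p = 0.0646 over the 12 libraries, 0.343 over the set means), and the genotypes overlapped. It was called without null library 6 (-0.67, limma adjusted p = 0.0167) and without wild-type library 3 (-0.66, limma adjusted p = 0.0220). Of its 100-base windows 58.4% also occur in transcripts of Zbtb37, which covers 34.4% of its exon bases on the opposite strand. Zbtb37 was at 6.42 ± 0.30 in null and 5.64 ± 0.28 in wild-type libraries, so the Serpinc1 value may not be its own. Serpinf1, pigment epithelium-derived factor, a secreted non-inhibitory serpin that limits vessel growth, was at 8.54 ± 0.11 in null and 8.63 ± 0.17 in wild-type libraries. Its difference of -0.09 (SE 0.22) was not called (limma adjusted p = 0.358 and 0.785), and its sign turned to 0.22 when libraries were scaled to equal totals. Serpinf2 (antiplasmin) and Serpind1 (heparin cofactor II) stayed under 4 in every library, with highest values of 3.43 and 3.98.

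The proteases and receptors that these inhibitors act on showed no call over the set means. In a plasminogen system list of 9 genes 8 were tested (median difference 0.76). The 12-library fit called 5 of them higher (34.1% of all genes) and 1 lower (31.8%). Plau, the gene for urokinase, averaged 14.11 in null libraries 1 to 3, 7.36 in null libraries 4 to 6, and 6.78 and 6.86 in the wild-type sets, so that its mean difference of 3.91 came mostly from 3 libraries (limma adjusted p = 0.210 over the set means). Lrp1, the receptor that clears Serpine2 bound to its protease, differed by 0.86 (limma adjusted p = 0.0859 over the set means), and Anxa2, a cell-surface receptor for plasminogen, by 0.67 (0.104). Plg, plasminogen itself, reached at most 2.35 in any library. In a coagulation and contact system list of 12, 6 were tested (median difference 0.50). The 12-library fit called 4 higher and 1 lower, beside the same shares of all genes, and the set-mean fit 0 (4.09% of all genes). F3, tissue factor, differed by 1.58 (limma adjusted p = 0.0518 over the set means), F2r, the thrombin receptor, by 0.89 (0.172), and Proc, protein C, by -1.09 (0.118). F2, the gene for thrombin, reached at most 3.95.

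Clade B inhibitors act inside cells and guard them against proteases released from granules and lysosomes. Of the 26 clade B genes, 11 lie on chromosome 1 and 15 on chromosome 13, and 3 and 4 of these were tested. Over the 12 libraries 4 of the 7 were called higher in the null (34.1% of all genes) and 2 lower (31.8% of all genes). Over the set means Serpinb1a alone of the 7 was called (4.09% of all genes).

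Serpinb1a, an inhibitor of neutrophil elastase, cathepsin G and proteinase 3, fell to 34.6% of its wild-type level, taken from the log2 difference. Serpinb1a (ENSMUSG00000044734, GRCm38 chr13:32842092-32851185, minus strand) had a lowest, median and highest value of 9.02, 9.08 and 9.15 in null libraries, against 10.29, 10.62 and 10.94 in wild-type libraries. All null libraries were below all wild-type libraries, and both null sets were alike at 9.06 and 9.10, while the wild-type sets were at 10.34 and 10.88. Serpinb1a fell by 1.53 (SE 0.23, n = 6 libraries per genotype), with a limma adjusted p of 2.31e-07 (12 libraries) and 0.0257 (set means). The neutrophil markers S100a8, S100a9, Ly6g and Mpo were under 4 in every library, as were Elane, Ctsg and Prtn3, which encode the 3 proteases that Serpinb1a inhibits. The summed share of the 6 differentiated luminal markers was also lower in the null, as given above, and its part in the Serpinb1a difference was not tested. That sum is weighted toward abundant genes such as Sbp, at 18.99 to 19.91 in wild-type libraries, where Krt8 was at 12.30 to 12.99. Krt8 overlapped between genotypes (12.22 to 12.46 in null). Of the 6, 5 were called lower over the 12 libraries (31.8% of all genes) and 2 over the set means (1.93%). The paralogues Serpinb1b and Serpinb1c stayed under 4 in every library.

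Serpinb6a and Serpinb6b, close relatives on chromosome 13, were called in opposite directions over the 12 libraries. Serpinb6a, an inhibitor of cathepsin G and other trypsin-like and chymotrypsin-like proteases, had a lowest, median and highest value of 11.33, 11.43 and 11.54 in null libraries, against 11.72, 11.87 and 11.97 in wild-type libraries. The genotypes did not overlap, but the difference was small, at -0.43 (SE 0.20, limma adjusted p = 8.82e-05 over the 12 libraries, 0.194 over the set means). It shrank to -0.12 and lost the call when libraries were scaled to equal totals. On the opposite strand Nqo2 covers 14.1%, 1110046J04Rik 10.8% and Ripk1 4.46% of the exon bases of Serpinb6a, and without strand their reads cannot be told apart. Nqo2 was at 8.92 ± 0.21 in null and 8.98 ± 0.19 in wild-type libraries.

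Serpinb6b, which in the mouse inhibits granzyme A, had a lowest, median and highest value of 5.34, 6.38 and 7.17 in null libraries, against 4.18, 4.77 and 5.06 in wild-type libraries. The genotypes did not overlap, yet the null sets stood apart at 7.10 in libraries 1 to 3 and 5.48 in libraries 4 to 6. Its difference of 1.60 (SE 0.56) was called over the 12 libraries (limma adjusted p = 0.00158), but not over the set means (0.126). Without null libraries 1 to 3 it was 0.79, and it was still called. In the sequences below, shown because these relatives were called in opposite directions, the lower-case loop region and capital signature aligned with 72.8% identity. They lie at chr13:33918095-33918202 on the minus strand (Serpinb6a) and chr13:32978192-32978299 on the plus strand (Serpinb6b). None of the 100-base windows of the longest transcript of either gene occurs in another gene.
Serpinb6a: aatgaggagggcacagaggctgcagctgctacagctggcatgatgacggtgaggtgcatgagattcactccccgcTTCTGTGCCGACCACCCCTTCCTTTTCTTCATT
Serpinb6b: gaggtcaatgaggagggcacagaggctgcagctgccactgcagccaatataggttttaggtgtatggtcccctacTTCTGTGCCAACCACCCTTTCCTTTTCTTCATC

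Serpinb9, the inhibitor of granzyme B that protects killer and antigen-presenting cells from their own granules, was high in 3 libraries. It had a lowest, median and highest value of 8.36, 9.09 and 9.81 in null libraries, against 8.32, 8.41 and 8.59 in wild-type libraries. Null libraries 1 to 3 averaged 9.75, while null libraries 4 to 6 (8.44) lay among the wild-type sets (8.38 and 8.45). The difference of 0.68 (SE 0.42) passed over the 12 libraries (limma adjusted p = 0.0369), but not over the set means (0.300), and it was 0.02 without null libraries 1 to 3. It also lost the call without any of 8 single libraries, null 1, 2 or 3 or wild type 1, 2, 3, 4 or 6.

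No killer-cell or mast-cell gene listed was called over the set means. Of 4 T and NK cell markers, 3 were tested and Cd8a alone was called, higher in the null, over the 12 libraries (34.1% of all genes). Their summed share was 0.00179% to 0.00181% in null libraries 1 to 3, 0.00278% to 0.00292% in null libraries 4 to 6 and 0.000890% to 0.00119% in wild-type libraries. This share was higher in the null set in which Serpinb9 and Serpinb6b were lower, and its part in their differences was not tested. The 3 mast cell markers Cpa3, Kit and Mcpt4 were all called higher over the 12 libraries (34.1% of all genes). Their summed share was 0.00315% to 0.00326%, 0.00145% to 0.00159% and 0.000619% to 0.000926% in those libraries. Kit varied most, at 8.49 to 8.55, 6.78 to 6.94 and 5.32 to 6.33, while Cpa3 overlapped between null libraries 4 to 6 and wild type. The part of the mast cell markers in the differences was not tested. Of a list of 9 leukocyte granule proteases, 6 were tested (median difference 0.38). The 12-library fit called 3 of them higher (34.1% of all genes) and the set-mean fit 0 (4.09%). Gzmb, granzyme B, differed by 0.32 (limma adjusted p = 0.480 over the set means), Gzma, granzyme A, by 0.45 (0.445), and the mast cell chymases Mcpt4 and Cma1 by 0.65 (0.219) and 0.59 (0.287).

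Of the lysosomal cysteine cathepsins, which some serpins also inhibit, 4 of 5 were called higher in the 12-library fit (34.1% of all genes). Their median difference was 0.70. Ctsh, cathepsin H, rose by 1.16 (limma adjusted p = 0.0478 over the set means), and it alone was called there. Ctsb differed by 0.94 (limma adjusted p = 0.0928 over the set means) and Ctss by 0.70 (0.209).

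The 3 tested clade B genes of chromosome 1 differed in their pattern. Serpinb5, or maspin, a non-inhibitory epithelial serpin typical of basal cells, had a lowest, median and highest value of 7.78, 7.87 and 8.09 in null libraries, against 7.20, 7.37 and 7.50 in wild-type libraries. The genotypes did not overlap and the sets within a genotype were close, but the difference of 0.55 (SE 0.25) was called over the 12 libraries alone (limma adjusted p = 9.80e-05, and 0.183 over the set means). The 4 basal markers Krt5, Krt14, Krt15 and Trp63 took 0.0247% to 0.0377% of null and 0.0139% to 0.0181% of wild-type libraries. Over the 12 libraries 3 of them were higher (34.1% of all genes) and Krt14 was lower (31.8%). Their part in the Serpinb5 difference was not tested.

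Serpinb11, an epithelial clade B serpin, was higher in null libraries 4 to 6. It had a lowest, median and highest value of 6.04, 6.98 and 7.81 in null libraries, against 5.45, 5.72 and 5.92 in wild-type libraries. Null libraries averaged 6.13 in libraries 1 to 3 and 7.74 in libraries 4 to 6, both above the wild-type sets at 5.69 and 5.72. The difference of 1.23 (SE 0.54) was called over the 12 libraries (limma adjusted p = 0.00552), but not over the set means (0.177), and it was 0.43 without null libraries 4 to 6. Serpinb8, whose human counterpart inhibits furin, was at 7.76 ± 0.18 in null and 7.50 ± 0.40 in wild-type libraries (SD, n = 6 each). Its wild-type sets stood at 7.86 and 7.14 on either side of most null libraries, and the difference of 0.26 (SE 0.32) was not called (limma adjusted p = 0.184 and 0.596).

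**Figure D3:**
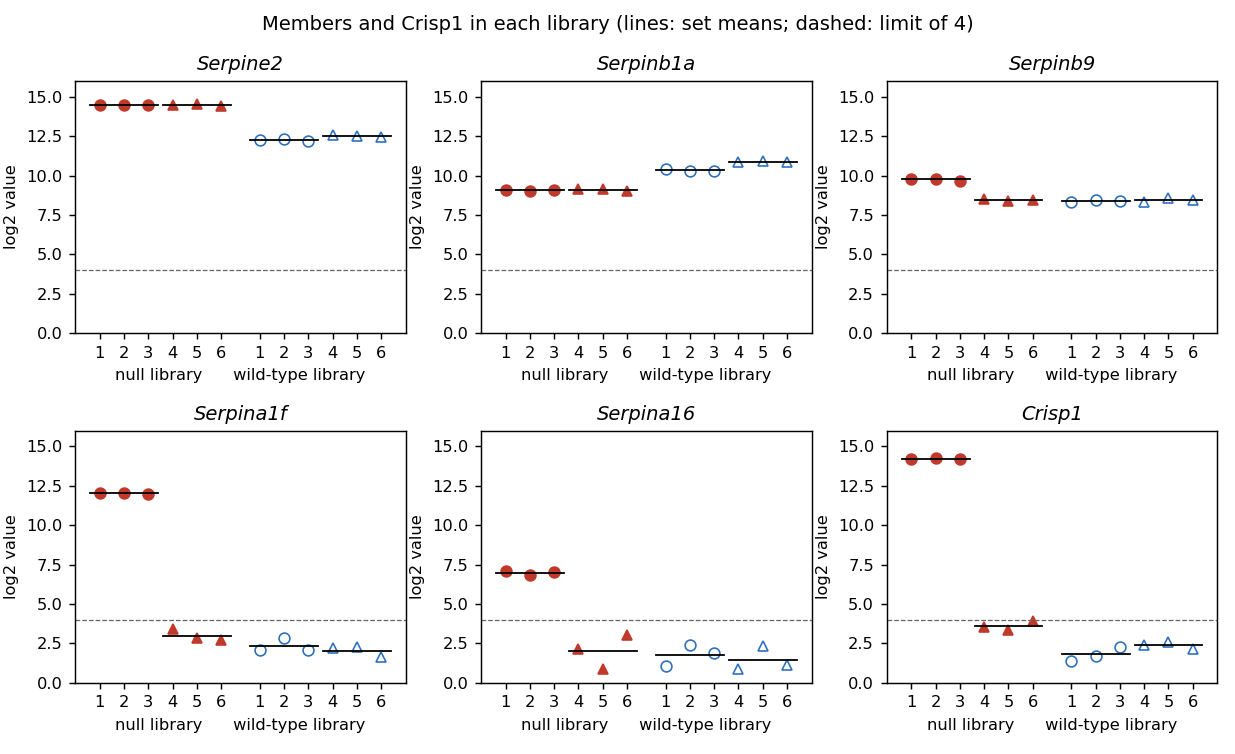
Log2 values of Serpine2, Serpinb1a, Serpinb9, Serpina1f, Serpina16 and Crisp1 in each null library (filled, left) and wild-type library (open, right), with lines at the set means and a dashed line at 4. Serpine2 and Serpinb1a are level across the null sets, whereas Serpinb9, Serpina1f, Serpina16 and Crisp1 are high in null libraries 1 to 3.

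Clade A was the most sparsely represented of the large clades. Of its 24 genes, 23 lie on chromosome 12, and the 5 that were tested all belong to the Serpina3 group, the mouse counterparts of human antichymotrypsin. Over the 12 libraries 4 of the 5 were called higher in the null (34.1% of all genes) and 0 lower (31.8% of all genes), and over the set means 0 were called (4.09% of all genes). Serpina3n, an acute-phase inhibitor of granzyme B and other proteases, had a lowest, median and highest value of 9.16, 9.62 and 10.14 in null libraries, against 8.38, 8.48 and 8.64 in wild-type libraries. The genotypes did not overlap, and null libraries 4 to 6 (10.05) were above null libraries 1 to 3 (9.21). Its difference of 1.13 (SE 0.31) had a limma adjusted p of 0.000121 (12 libraries) and 0.0866 (set means).

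Serpina3c was at 5.42 ± 0.23 in null and 4.39 ± 0.25 in wild-type libraries, without overlap (difference 1.03, limma adjusted p = 9.46e-05 over the 12 libraries, 0.109 over the set means). Serpina3g, an inhibitor of lysosomal cathepsins in immune cells, was at 6.71 ± 0.27 in null and 5.99 ± 0.27 in wild-type libraries, again without overlap (difference 0.73, limma adjusted p = 0.00140 and 0.189). Serpina3m was at 5.07 ± 0.41 in null and 4.22 ± 0.35 in wild-type libraries, with overlap (difference 0.85, limma adjusted p = 0.00404 and 0.176). Serpina3f was at 4.44 ± 0.56 in null and 4.30 ± 0.30 in wild-type libraries and was not called (difference 0.14, limma adjusted p = 0.626 and 0.799). These are SDs over 6 libraries. With quantile normalization the difference of Serpina3f turned to -0.17, and Serpina3g and Serpina3m were no longer called over the 12 libraries (limma adjusted p = 0.0863 and 0.0594). The 5 macrophage markers took 0.0137% to 0.0142% of null libraries 1 to 3 and 0.0213% to 0.0239% of null libraries 4 to 6. Their share of wild-type libraries was 0.0116% to 0.0129%. Over the 12 libraries 2 of the 5 were called higher (34.1% of all genes) and 0 lower. C1qa and C1qb were lower in null libraries 1 to 3 than in every wild-type library. The part of these markers in the Serpina3n difference was not tested. Of 6 genes of hepatocytes, where Serpina3 genes are also active, Alb, Apoa1, Fgb and Ahsg stayed under 4 in every library. Apoa2 was at 1.87 to 3.42 in null and 4.15 to 5.29 in wild-type libraries, and Ttr, which other tissues also make, at 5.22 to 6.40 in null and 4.58 to 5.87 in wild-type libraries.

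The Serpina3 genes are copies of each other that differ most in the loop, so reads could be shared between them. Of the 100-base windows of each longest transcript, the share found unchanged in another gene was 0% for Serpina3c, 0.204% for Serpina3n, 3.58% for Serpina3f, 4.64% for Serpina3g and 6.09% for Serpina3m. Few reads of that length would thus match another gene exactly. Matches with mismatches were not counted, so sharing between these copies may be larger. Serpina3m shares 60 exon bases with Serpina3k, which was under 4 in every library. The loop regions are printed to show this divergence, with the conserved signature in capitals and GRCm38 coordinates as follows. Serpina3c is at chr12:104147295-104147402 on the minus strand, Serpina3f at chr12:104220242-104220349 on the plus strand, Serpina3g at chr12:104241066-104241173 on the plus strand, Serpina3m at chr12:104393763-104393870 on the plus strand and Serpina3n at chr12:104413442-104413549 on the plus strand. Pairwise identity over these stretches ran from 58.7% (Serpina3c with Serpina3f) to 74.4% (Serpina3c with Serpina3m).
Serpina3c: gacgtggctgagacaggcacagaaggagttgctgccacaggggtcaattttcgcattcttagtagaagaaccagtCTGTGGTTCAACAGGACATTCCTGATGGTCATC
Serpina3f: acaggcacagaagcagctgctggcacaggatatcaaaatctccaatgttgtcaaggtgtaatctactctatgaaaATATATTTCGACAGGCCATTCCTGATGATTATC
Serpina3g: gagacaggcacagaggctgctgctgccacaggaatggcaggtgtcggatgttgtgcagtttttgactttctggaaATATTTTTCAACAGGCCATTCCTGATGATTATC
Serpina3m: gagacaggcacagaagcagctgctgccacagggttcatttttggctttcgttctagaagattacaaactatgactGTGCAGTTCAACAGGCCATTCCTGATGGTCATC
Serpina3n: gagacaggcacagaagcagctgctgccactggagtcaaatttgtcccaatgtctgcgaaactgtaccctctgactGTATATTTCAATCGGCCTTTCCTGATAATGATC

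Serpina1f and Serpina16 were below the limit for testing and yet reached high values in 3 libraries. Serpina1f, a relative of antitrypsin described in the rodent epididymis, reached 12.04, 12.03 and 12.01 in null libraries 1 to 3 but 3.41, 2.85 and 2.72 in null libraries 4 to 6, against 1.66 to 2.85 in wild-type libraries. This corresponds to 4304 to 4941 estimated reads in each of null libraries 1 to 3, while values in the other libraries were too low for such an estimate. Serpina16, its neighbour on chromosome 12, reached 7.08, 6.84 and 7.03 in null libraries 1 to 3 but 2.15, 0.85 and 3.06 in null libraries 4 to 6, against 0.89 to 2.39 in wild-type libraries. Both genes were thus high in one null set and under 4 in the other, and no test between genotypes is given. None of the 100-base windows of the longest transcript of either gene occurs in another gene.

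Of 7 epididymis and vas deferens markers, Crisp1, a secreted protein of the epididymis, had the same pattern, at a mean of 14.23 in null libraries 1 to 3, 3.61 in null libraries 4 to 6 and at most 2.37 in the wild-type sets. Aqp9, a water and glycerol channel of the excurrent ducts, reached 8.64 in null libraries 1 to 3, with 4.90 in null libraries 4 to 6 and 4.48 and 4.53 in the wild-type sets, and Adam7 was at 9.25, 8.22, 8.47 and 7.37 in null libraries 1 to 3, null libraries 4 to 6 and the wild-type sets. Lcn5, Lcn8, Rnase9 and Cst8, also genes of the epididymis, stayed under 4 in every library. The summed share of the 7 was 0.116% to 0.120% of null libraries 1 to 3, 0.00213% to 0.00224% of null libraries 4 to 6 and at most 0.00205% of wild-type libraries. Whether transcripts of another tissue account for Serpina1f and Serpina16 was not tested.

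Because Serpina1f and Serpina16 moved together, their promoters are shown, from 250 bases before to 50 bases after the RefSeq start (GRCm38.p6). That of Serpina1f is at chr12:103695480-103695779 on the minus strand and that of Serpina16 at chr12:103676713-103677012 on the minus strand. Letters searched on both strands were TGTTCT (androgen and glucocorticoid receptor half-site), TTCNNNGAA (STAT), GAANNTTC (heat shock element), TATAAA and CCAAT, and matches are in capitals. The Serpina1f promoter held TTCNNNGAA from base -97, a motif in 8.47% of 27025 promoters. The Serpina16 promoter held TGTTCT from bases -158 and -13, a motif in 19.0% of promoters. The promoters of these neighbours shared none of the motifs searched.
Serpina1f: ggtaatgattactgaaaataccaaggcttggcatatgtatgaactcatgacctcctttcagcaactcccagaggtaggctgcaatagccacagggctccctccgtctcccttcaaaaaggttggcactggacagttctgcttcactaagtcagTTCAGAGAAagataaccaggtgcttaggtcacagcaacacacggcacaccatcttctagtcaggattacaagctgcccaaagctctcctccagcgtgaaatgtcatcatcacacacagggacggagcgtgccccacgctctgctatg
Serpina16: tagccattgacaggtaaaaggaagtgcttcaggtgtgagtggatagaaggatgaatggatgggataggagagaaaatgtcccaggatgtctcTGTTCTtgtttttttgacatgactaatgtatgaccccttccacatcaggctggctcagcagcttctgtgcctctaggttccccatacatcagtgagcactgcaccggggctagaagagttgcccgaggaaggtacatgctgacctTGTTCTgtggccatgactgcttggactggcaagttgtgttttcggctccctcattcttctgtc

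Over the 16 tested members with a RefSeq promoter, motif counts are given as a description. TGTTCT was in 5 (Serpina3c, Serpina3f, Serpina3n, Serpinb8 and Serpine3), TTCNNNGAA in 3 (Serpina3f, Serpina3g and Serpinb6a) and GAANNTTC in 3 (Serpina3c, Serpinb5 and Serpini1), a motif in 7.95% of all promoters. TATAAA was in 2 of the 16 and in 14.2% of all, and CCAAT in 4 of the 16 and in 37.9% of all. The Serpine2 promoter held none of them.

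The clade A genes not yet named stayed under 4 in every library. They include Serpina1a to Serpina1e (antitrypsin), Serpina5 (protein C inhibitor), Serpina6 and Serpina7 (carriers of corticosteroids and thyroxine), Serpina10 (inhibitor of factor Xa with protein Z) and Serpina12 (vaspin). Their highest value in any library was 3.72, in Serpina1b. Serpina1a to Serpina1e share 14.8% to 69.3% of their 100-base windows with other genes, so reads counted only when unique would understate them. Over the whole family 38 of the 61 genes stayed under 4 in every library, with values of 0.42 to 3.98, and Serpinb2 (plasminogen activator inhibitor 2) reached 4.16 in null library 1 alone. Some of them were above the floor (median 1.98, SD 0.55), such as Serpind1, at 3.73 ± 0.20 in null and 3.12 ± 0.34 in wild-type libraries (SD, n = 6 each), and Serpina1b, at 3.65 to 3.72 in wild-type libraries 4 to 6. These 38 genes were not tested.

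**Figure D4:**
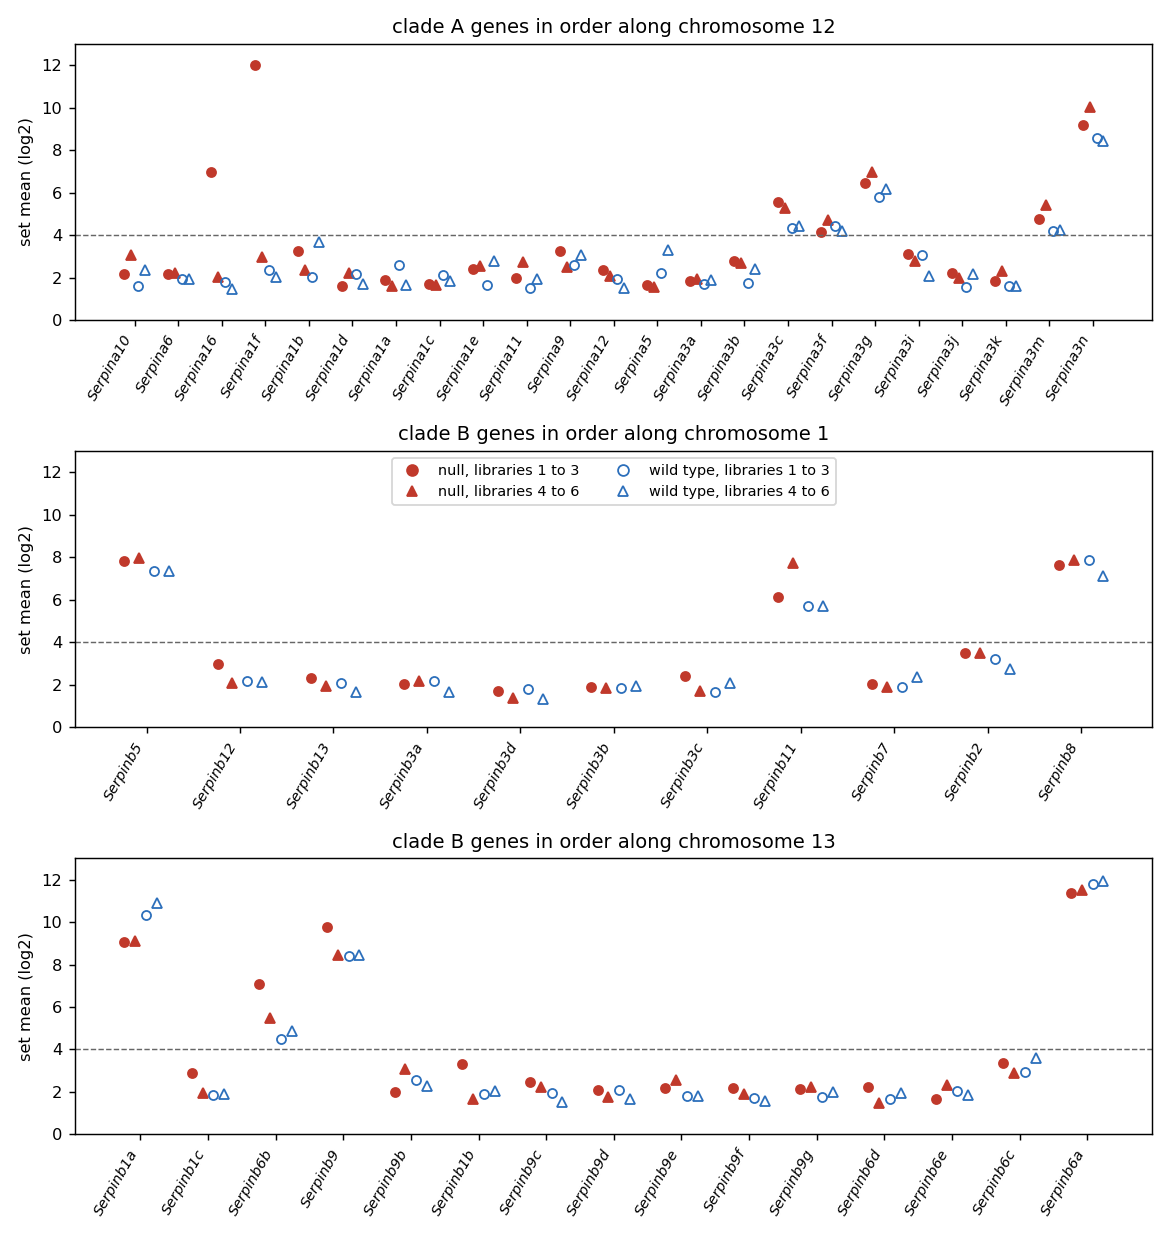
Set means (log2) of clade A genes along chromosome 12 and clade B genes along chromosomes 1 and 13, in gene order, for null (filled) and wild-type (open) libraries; the dashed line marks 4. The 5 tested clade A genes are all Serpina3 genes at the far end of the cluster, and Serpina16 and Serpina1f stand side by side with high values in null libraries 1 to 3.

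Serping1 and Serpinh1 are the only members of clades G and H, and clade I holds 2 members, Serpini1 and Serpini2. Serpini2 stayed under 4 in every library, with a highest value of 3.02. Serping1, the C1 inhibitor, which blocks the first proteases of the classical and lectin complement pathways, was nearly level. It had a lowest, median and highest value of 11.39, 11.41 and 11.41 in null libraries, against 11.41, 11.47 and 11.59 in wild-type libraries. Its difference of -0.08 (SE 0.18) was not called (limma adjusted p = 0.155 over the 12 libraries, 0.791 over the set means). Its sign depended on scaling, at 0.24 with equal library totals and 0.15 with quantile normalization, both called over the 12 libraries.

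Among listed proteases of the C1 and lectin pathways, C1s2 and C1rb fell, while Serping1 was not called. Whether Serping1 inhibits the products of these mouse genes was not tested. C1s2, a mouse C1s gene, averaged 10.09 and 10.42 in the null sets and 15.16 and 15.49 in the wild-type sets and fell by 5.07 (limma adjusted p = 0.00247 over the set means). C1rb, a mouse C1r gene, averaged 10.69 and 12.50 in the null sets and 15.34 and 15.70 in the wild-type sets and fell by 3.92 (limma adjusted p = 0.0244). C1ra differed by -0.53 (limma adjusted p = 0.160). Of this list of 6, 5 were tested (median difference -0.53). The 12-library fit called 3 of them lower (31.8% of all genes) and 0 higher (34.1%). The sources used here do not say how reads were divided between C1ra and C1rb, or between C1s1 and C1s2.

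Serpinh1, or Hsp47, is a collagen chaperone of the endoplasmic reticulum and inhibits no protease. It was at 10.21 ± 0.14 in null and 10.09 ± 0.08 in wild-type libraries (SD, n = 6 each), with overlap. Its difference of 0.12 (SE 0.19) was not called (limma adjusted p = 0.139 and 0.671), though it was 0.44 and called over the 12 libraries with equal library totals. Of its 12 listed partners in collagen folding, all tested, the 12-library fit called 6 higher (34.1% of all genes) and 3 lower (31.8%). The set-mean fit called 0 of them (4.09% of all genes), and their median difference was 0.21. P4ha1, a prolyl hydroxylase subunit, differed by -0.88 (limma adjusted p = 0.0795 over the set means), Col4a2 by 0.85 (0.0922) and Col4a1 by 0.95 (0.117). The 5 fibroblast markers, which include Col1a1 and Col3a1 of that list, were higher over the 12 libraries (34.1% of all genes). They took 0.0737% to 0.0892% of null and 0.0385% to 0.0539% of wild-type libraries.

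Serpini1, or neuroserpin, the inhibitor of tissue plasminogen activator in nerve tissue, had a lowest, median and highest value of 4.52, 5.35 and 6.36 in null libraries, against 5.84, 6.64 and 7.31 in wild-type libraries. The genotypes overlapped, since null libraries 1 to 3 (6.21) were level with wild-type libraries 1 to 3 (6.07), while null libraries 4 to 6 (4.61) and wild-type libraries 4 to 6 (7.16) stood apart. The difference of -1.20 (SE 0.62) passed over the 12 libraries (limma adjusted p = 0.0168), but not over the set means (0.231). It was -0.40 without null libraries 4 to 6 and -0.66 without wild-type libraries 4 to 6, called in neither. The 2 nerve markers Tubb3 and Uchl1 took 0.00648% to 0.00708% of null libraries 1 to 3. They took 0.000949% to 0.00107% of null libraries 4 to 6 and 0.000940% to 0.00139% of wild-type libraries. Their part in the Serpini1 difference was not tested. Plat, tissue plasminogen activator and the target of Serpini1, averaged 7.88 and 7.89 in the null sets and 7.32 and 6.77 in the wild-type sets (difference 0.84, limma adjusted p = 0.125 over the set means).

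The epithelial membrane serine proteases, targets of several secreted serpins, went both ways. Of 5 tested, the 12-library fit called 1 higher (34.1% of all genes) and 2 lower (31.8%). Tmprss2 alone was called over the set means (4.09% of all genes). Tmprss2 averaged 11.51 and 11.53 in the null sets and 13.41 and 13.21 in the wild-type sets and fell by 1.79 (limma adjusted p = 0.0147). Hpn, hepsin, differed by 1.65 (limma adjusted p = 0.0737) and Prss8, prostasin, by -0.70 (0.0917).

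To compare levels between genes, linear values (2 to the power of the log2 value) were divided by the length of the longest transcript in kilobases. On this linear scale per kilobase Serpine2 was at 6736 ± 180 in null and 1582 ± 168 in wild-type libraries (SD, n = 6 each). Serping1 followed at 1532 ± 10.01 in null and 1616 ± 69.4 in wild-type libraries, and Serpinb6a at 1263 ± 83.9 in null and 1702 ± 121 in wild-type libraries. In wild-type libraries these 3 genes did not differ beyond the SD of their neighbour, whereas in the null each gap was larger than the SD. Serpine2 ranked 95 and 136 among 16038 genes in the null sets and 881 and 860 in the wild-type sets.

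Serpinb1a was at 282 ± 11.3 per kilobase in null and 828 ± 170 in wild-type libraries, ranking 6 of the 20 in null and 4 in wild-type libraries. Serpinh1 was at 523 ± 51.3 in null and 480 ± 25.5 in wild-type libraries, and Serpina3n at 401 ± 127 in null and 176 ± 12.6 in wild-type libraries, and these 2 did not differ beyond the SD in the null. All other members were at most at 204 per kilobase in null and 218 in wild-type libraries, and Serpinc1 was lowest at 2.67 ± 0.84 in null and 3.85 ± 1.12 in wild-type libraries. Without division by length, Serpine2 made up 67.8% to 70.4% of the summed linear values of the 20 tested members in null libraries, against 31.2% to 33.5% in wild-type libraries. The 20 together took 0.190% to 0.209% of null and 0.0740% to 0.0839% of wild-type libraries.

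**Figure D5:**
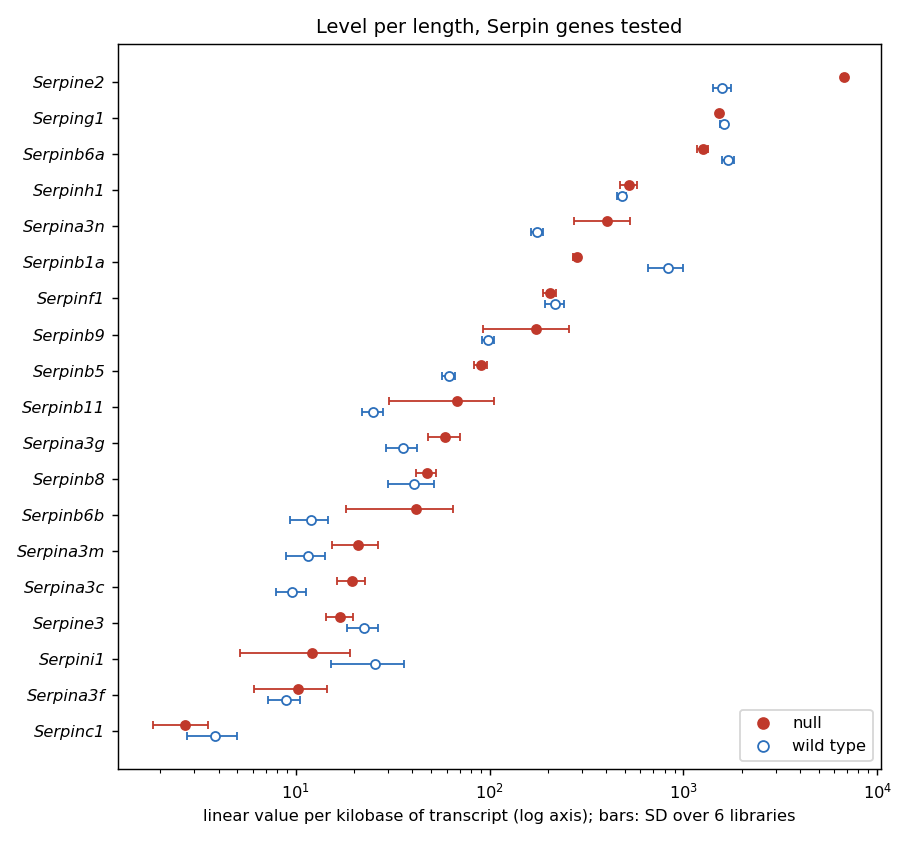
Linear value per kilobase of transcript (log axis) of 19 of the 20 tested Serpin genes in null (filled, upper) and wild-type (open, lower) libraries, as means with SD over 6 libraries. Serpine2 leads the null at 6736, while Serpinb6a, Serping1 and Serpine2 lie together in wild type between 1582 and 1702.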

How the data were processed

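Prostate RNA was selected for poly-A, prepared with a TruSeq kit and sequenced on a HiSeq2000, per the labels' protocols. Tools and builds listed, per the submitters' processing notes, are TopHat, Cufflinks, DESeq and CASAVA (1.8.2), GRCm38.p2 and mm9, with no role stated for any. Strand setting and treatment of multi-mapping reads remain not given in the sources used here. The authors deposited a table of log2 values, normalized by them between libraries, with a floor of median 1.98 (SD 0.55 over genes with a mean under 2.5). Whole-number steps gave a factor per library and totals of 14.8 to 21.7 M reads, but only for high values (tolerance 0.1), so no count model was used. These totals and the read numbers from them are estimates.

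Ensembl IDs were matched to GENCODE M21 (GRCm38), and 96.0% of 39179 rows had a symbol. The 7 Serpin rows that are not protein-coding were left out. Genes at 4 or more in 6 or more libraries (16197) were tested with limma 3.58.1 under R 4.3.3 (two-sided, with trend, no pseudocount, Benjamini-Hochberg over all tested genes). Differences of low genes are understated on this scale. Sets of 3 libraries were found by average-linkage clustering within each genotype, with the number of clusters set to 2. Median absolute differences were 0.0776 to 0.141 within and 0.274 to 0.352 between sets. The fit over set means has 2 values per genotype and assumes that sets are independent. Shares are of summed linear values. On simulated data with known changes the fit was checked before use. The simulation held no differences between sets, so it could not check the p-values over the 12 libraries. Python 3.11.15 was used for sequences and figures. Promoters are RefSeq's, present for 52 of 61 members. Protein-coding stretches were read from GENCODE transcripts, and identities count gaps in the alignment as differences.

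1 tested member is counted but, like some marker genes, is not reported here. Members, partner lists, marker lists and tests were chosen with earlier results of these data known. Lowest, median and highest values are given for members called in both fits and for members without overlap that differ by 2 or more. Some other tested members are given in the same form. For members below the limit that reach 6, the value in each null library and the wild-type range are given. Partner genes named are up to 3 per list by p over the set means, and other genes named were chosen after their values were seen. Other scalings, filters, thresholds, library weights, transcript length and omission of libraries and sets were tried.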

Additional observations from a re-analysis of the deposited data

How the results depend on the processing

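Serpine2 (1.96 to 2.41) and Serpinb1a (-1.80 to -1.21) kept their direction and their call under all 27 alternatives. Of the 13 members called over the 12 libraries, 11 kept the call with each library left out in turn, 9 with each set left out, 6 with the set as a random block, 7 under 3 other scalings and removal of the length trend, and 4 under all of these. Serpinb11 lost it with quantile normalization (limma adjusted p = 0.0573) and Serpinb9 with the length trend removed (0.0504). With the set as a random block the members called were 4 higher and 2 lower, and over the set means 1 and 1. The lower members were also 2 with equal library totals, 2 at an adjusted p of 0.01 and 2 without wild-type libraries 4 to 6. With 1 library left out, 8 to 9 members were higher and 3 to 5 lower. Over all genes, 349 were higher and 313 lower over the set means, 2285 and 2767 with the random block, and 8611 and 2608 with equal totals, where the median over all genes was 0.37 in place of 0.05 (0.13 with upper-quartile centring). With 1 library left out, 5051 to 5497 were higher and 4847 to 5140 lower. Signs turned for members not called. Serpina3f was at -0.17 with quantile normalization, -0.026 to 0.27 with 1 library left out (-0.026 without null library 6) and -0.13 without null libraries 4 to 6, and Serpinb8 at -0.0073 with library weights and -0.10 without wild-type libraries 4 to 6. Serpinf1 was at 0.22 with equal totals, 0.034 with the length trend removed and 0.024 without wild-type libraries 4 to 6. Serping1 was at 0.24 with equal totals, 0.00085 with upper-quartile centring, 0.15 with quantile normalization and 0.061 with the length trend removed. The causes were not tested. No paired analysis was possible because the labels give no replicate numbers, so the numbers used here pair no libraries. With 4 set means only large differences can pass, and genes near the floor are not measured at this depth.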

Other observations

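The 7 Serpin rows left out as pseudogenes stayed under 4 in every library. Their highest values in any library ran from 2.53 (Serpinb1-ps1) to 3.42 (Serpina3h). Serpina3h, which lies among the Serpina3 genes and shares windows with Serpina3g, was at 3.01 ± 0.30 in null and 2.68 ± 0.69 in wild-type libraries (SD, n = 6 each). Serpina3e-ps, which shares windows with Serpina3n, was at 2.11 ± 0.45 in null and 2.08 ± 0.63 in wild-type libraries.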
